A study of Mus musculus with 8 samples.

Results

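The genes described here are 10 of the 24054 genes in the deposited table: 5 S100 genes (S100a6, S100a4, S100a10, S100a11 and S100a13), 3 annexins (Anxa2, Anxa5 and Anxa6), the transglutaminase Tgm2 and the vimentin gene Vim. They were listed by name as calcium-binding and cytoskeletal genes and chosen by their measured levels in these libraries, S100a6 and Tgm2 for a strong increase after anti-IgM. Their anti-IgM responses are therefore given as a description, and nothing is read from how many of them pass a test. PolyA-selected RNA was sequenced from 2 derivatives of WEHI-231, an immature mouse B cell lymphoma line. Of these, one is named for the microRNA miR-148a and the other is its control. There were 4 groups of 2 libraries: anti-IgM miR-148a cells, anti-IgM control cells, unstimulated miR-148a cells and unstimulated control cells. Anti-IgM, an antibody that crosslinks the B cell receptor, was given at 2 ug/ml for 14 h. The labels give the line, the cell type and the treatment, and do not give the vector, the number of clones or the level of the microRNA. They also do not say whether the 2 libraries of a group were grown separately, so each p-value measures the spread among these 8 libraries alone, which may be technical.

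S100 proteins are small EF-hand proteins that form dimers and mostly bind partner proteins once calcium has opened a binding surface. Annexins bind acidic phospholipids of membranes when calcium is present, and several of them carry an S100 dimer as a partner. Tissue transglutaminase, the product of Tgm2, needs calcium to crosslink glutamine to lysine residues, and vimentin is the intermediate filament protein of mesenchymal and many blood cells. Crosslinking of the B cell receptor raises cytosolic calcium, and WEHI-231 cells so treated stop dividing and die.

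Total counts ran from 5810227 to 18660373 per library, with levels given as CPM, the count of a gene over the TMM-scaled library total. A count of 3 equals 0.166 CPM in the largest library and 0.502 CPM in the smallest. Anti-IgM and unstimulated libraries lay apart on the first principal component (49.4% of the variance). On the second (21.1%) replicate 1 lay apart from replicate 2, and the labels give these different run prefixes. All 10 genes passed the filter on low counts, with 6 to 5601 counts per library. The 7 B cell markers found in the table summed to 2431 to 2702 CPM in anti-IgM miR-148a cells, 1903 to 2066 CPM in anti-IgM control cells, 2083 to 2197 CPM in unstimulated miR-148a cells and 1952 to 2036 CPM in unstimulated control cells.

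The 5 S100 genes lie on chromosome 3, in GENCODE M21 coordinates on GRCm38, all on the plus strand. S100a13 (chr3:90514435-90524581), S100a4 (chr3:90603771-90606045) and S100a6 (chr3:90612882-90624181) belong to one run of S100 genes, and a gap of 6.84 kb that holds S100a5 separates S100a4 from S100a6. S100a11 (chr3:93520488-93526287) and S100a10 (chr3:93555080-93564643) lie 28.8 kb from each other and 2896 kb beyond S100a6. The sequences before the start of S100a4 and S100a6, the neighbouring S100 genes with the strongest response, are printed here in lower case, with TATAAA in capitals.
S100a4, chr3:90603520-90603769, plus strand: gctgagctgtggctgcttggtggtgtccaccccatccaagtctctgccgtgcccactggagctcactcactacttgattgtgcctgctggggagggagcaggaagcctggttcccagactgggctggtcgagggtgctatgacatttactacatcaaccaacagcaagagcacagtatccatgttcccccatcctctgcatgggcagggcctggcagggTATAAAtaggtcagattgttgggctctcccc
S100a6, chr3:90612644-90612881, plus strand: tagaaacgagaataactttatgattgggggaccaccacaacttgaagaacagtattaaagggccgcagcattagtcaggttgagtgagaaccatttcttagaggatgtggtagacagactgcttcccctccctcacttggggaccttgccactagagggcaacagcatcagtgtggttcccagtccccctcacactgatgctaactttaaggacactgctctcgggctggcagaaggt

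Both are from the RefSeq promoter table on GRCm38.p6, which held 7 of the 10 genes, and that of S100a6 stops at its first annotated exon base. On either strand of the 250 bases before the start, TATAAA stood in 3 of these 7 genes (S100a4, Anxa2 and Vim), against 12.4% of 32851 promoters, and in S100a4 it ended 25 bases before the start. In Anxa2 the TATAAA lay past the first annotated exon base of the gene, and for Vim the whole window lay past it. TGANTCA, the letters that AP-1 binds, stood in S100a11 and Anxa2 (2 of 7, against 6.75% of promoters). GGGCGG stood in 2 of 7 (against 32.7%), CACGTG in 1 of 7 (against 6.02%), and the CArG box in 0 of 7 (against 1.47%). None of these letters overlaps another motif searched, and a match describes the letters of the window only.

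The lines are named for miR-148a, so the sequence of its mature 3p strand is shown, with the seed, bases 2 to 8, in capitals. It maps to chr6:51269829-51269850 on the minus strand in the RefSeq table on GRCm38.p6.
miR-148a-3p: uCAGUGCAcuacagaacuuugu
S100a11 transcript around its seed match, chr3:93526194-93526223, plus strand: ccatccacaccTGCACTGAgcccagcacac
Among the 3′ UTRs of the 10 genes, that of S100a11 alone held the full match, TGCACTGA in capitals, at base 58 of its 140. S100a10 held a match to 6 seed bases only, and the other 8 genes held none. The same 8 letters stood in the last 140 bases of the 3′ UTR of 48 of 18909 coding genes (0.254%), and anywhere in the 3′ UTR of 3.52% of 20930.

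In both lines, Tgm2 and S100a6 had the highest response to anti-IgM of the 10 genes, 9.07-fold to 10.8-fold, followed by S100a4, Vim and Anxa2. Tgm2 had 22.0 and 18.9 CPM in anti-IgM miR-148a cells, in replicates 1 and 2, and 10.7 and 9.22 CPM in anti-IgM control cells. It had 2.15 and 1.61 CPM in unstimulated miR-148a cells and 1.44 and 0.541 CPM in unstimulated control cells. The 4 groups did not overlap, in the order just given, although the lowest library held 6 counts. The log2 fold change of anti-IgM over unstimulated was 3.43 ± 0.30 in the miR-148a line (a 10.8-fold change) and 3.20 ± 0.34 in the control line (9.16-fold), standard errors throughout. In the control line it rests on the unstimulated libraries, being 4.16 without replicate 1 of these and 2.75 without replicate 2. By size of the log2 fold change Tgm2 ranked 19 of 11291 tested genes in the miR-148a line and 22 in the control line.

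S100a6, also called calcyclin, had 10.7 and 16.8 CPM in anti-IgM miR-148a cells and 14.2 and 10.6 CPM in anti-IgM control cells. It had 1.46 and 1.54 CPM in unstimulated miR-148a cells and 1.66 and 0.902 CPM in unstimulated control cells. Both anti-IgM groups lay above both unstimulated groups, and within each condition the lines overlapped. Its log2 fold change was 3.21 ± 0.34 in the miR-148a line and 3.18 ± 0.34 in the control line, and it ranked 24 in the miR-148a line and 25 in the control line.

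S100a4, which binds nonmuscle myosin, had 29.4 and 35.6 CPM in anti-IgM miR-148a cells and 21.8 and 17.5 CPM in anti-IgM control cells. Unstimulated, it had 8.89 and 6.76 CPM in the miR-148a line and 6.65 and 3.97 CPM in the control line. As for Tgm2, none of the 4 groups overlapped, and the miR-148a line was the higher in each condition. The log2 fold change was 2.06 ± 0.23 in the miR-148a line and 1.83 ± 0.25 in the control line.

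**Figure D1:**
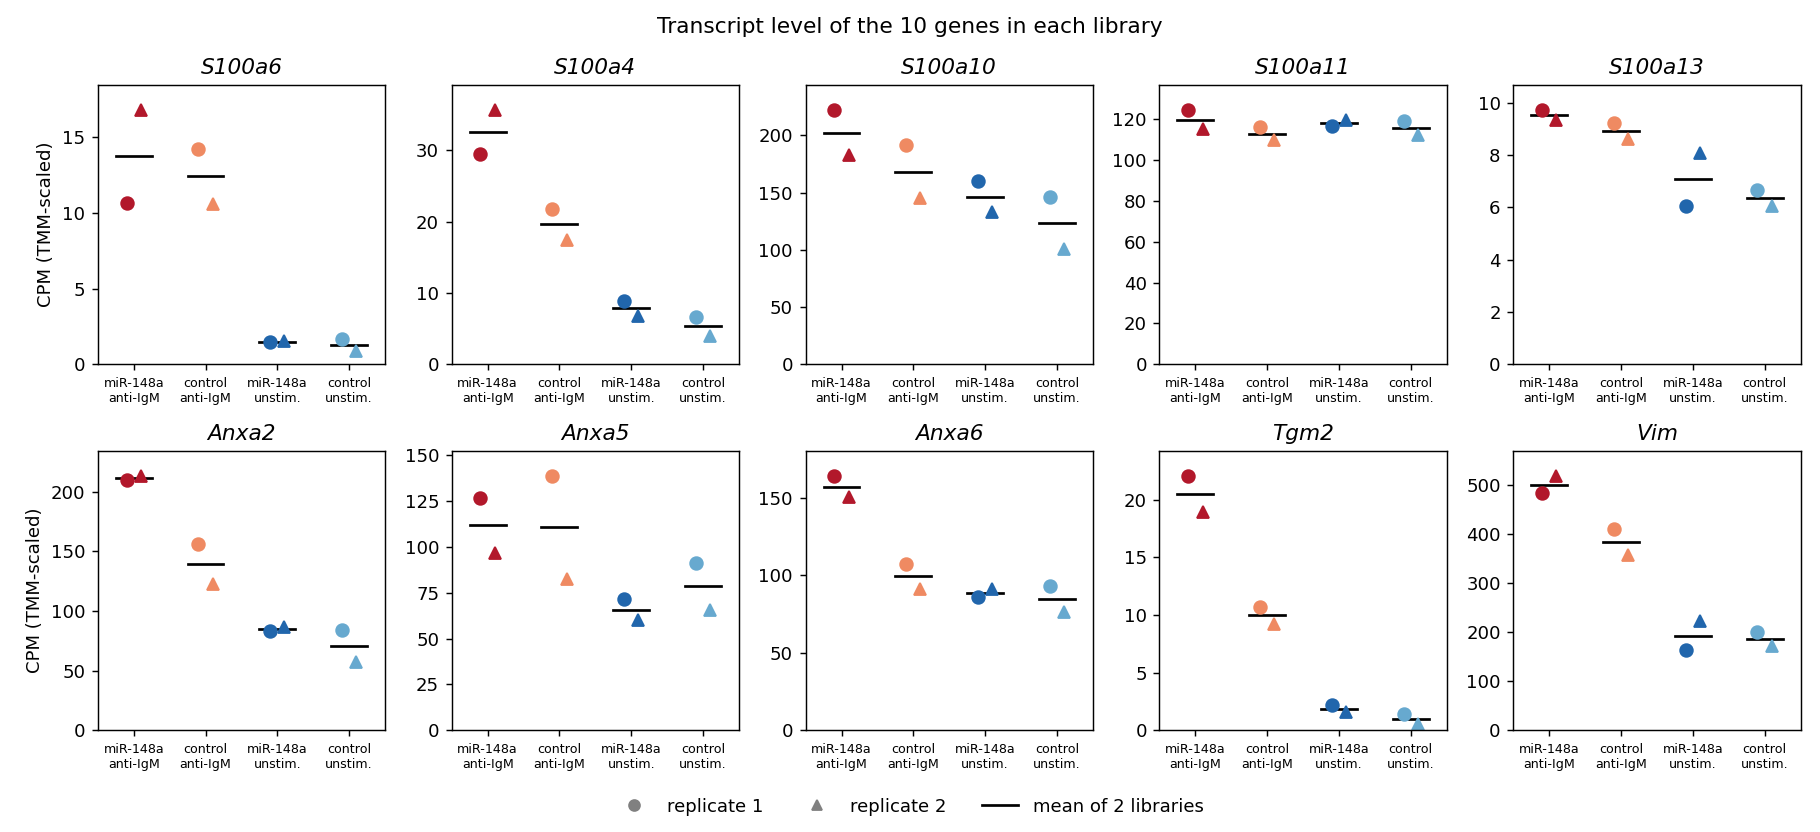
CPM of each gene (vertical axis, linear, from 0) in the 8 libraries, by group: anti-IgM miR-148a cells, anti-IgM control cells, the miR-148a line unstimulated and the control line unstimulated; circles are replicate 1, triangles replicate 2 and lines the mean of the 2. Tgm2, S100a6, S100a4, Vim and Anxa2 stand apart by anti-IgM in both lines, Anxa6 is high in anti-IgM miR-148a cells (164 and 151 CPM), and S100a11 is level (110 to 124 CPM).

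S100a10, the partner of annexin A2 that has lost calcium binding, had 222 and 183 CPM in anti-IgM miR-148a cells and 192 and 145 CPM in anti-IgM control cells. Unstimulated, it had 160 and 133 CPM in the miR-148a line and 146 and 100.4 CPM in the control line. The anti-IgM libraries lay above the unstimulated ones of the same line in the miR-148a line, while in the control line the groups overlapped. Within the runs, anti-IgM was the higher in both, by 0.47 and 0.46 on the log2 scale in the miR-148a line and by 0.39 and 0.53 in the control line. The log2 fold change was 0.46 ± 0.20 in the miR-148a line and 0.44 ± 0.20 in the control line.

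S100a11, a partner of annexin A1, was the gene that differed least. It had 124 and 115 CPM in anti-IgM miR-148a cells, 116 and 110 CPM in anti-IgM control cells, 117 and 119 CPM in unstimulated miR-148a cells and 119 and 112 CPM in unstimulated control cells. The groups overlapped in each line, and the log2 fold change was 0.02 ± 0.10 in the miR-148a line (95% interval -0.25 to 0.29) and -0.04 ± 0.10 in the control line (95% interval -0.31 to 0.23).

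S100a13, which takes part in the export of cytokines without a signal peptide, stood at 9.70 and 9.32 CPM in anti-IgM miR-148a cells and 9.21 and 8.61 CPM in anti-IgM control cells. It stood at 6.05 and 8.07 CPM in unstimulated miR-148a cells and 6.65 and 6.05 CPM in unstimulated control cells. Anti-IgM libraries lay above unstimulated ones in both lines, on 55 to 120 counts per library, and the log2 fold change was 0.43 ± 0.20 in the miR-148a line and 0.48 ± 0.20 in the control line.

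Of the annexins, Anxa2, which links membranes to actin, had 210.4 and 213 CPM in anti-IgM miR-148a cells and 156 and 123 CPM in anti-IgM control cells. It had 83.5 and 86.4 CPM in unstimulated miR-148a cells and 84.2 and 57.5 CPM in unstimulated control cells. The miR-148a line with anti-IgM was highest and anti-IgM control cells next, and only the unstimulated groups overlapped. The log2 fold change was 1.32 ± 0.18 in the miR-148a line and 0.97 ± 0.18 in the control line.

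Anxa6 (chr11:54979108-55033445, minus strand), an annexin with a duplicated core, had 164 and 151 CPM in anti-IgM miR-148a cells, against 107.6 and 91.1 CPM in anti-IgM control cells. It had 86.2 and 91.2 CPM in unstimulated miR-148a cells and 93.4 and 76.2 CPM in unstimulated control cells. The miR-148a line with anti-IgM stood alone, and the other 3 groups overlapped. On the log2 scale the response was 0.83 ± 0.13 in the miR-148a line and 0.22 ± 0.13 in the control line.

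Anxa5, the annexin whose protein is used to stain phosphatidylserine on dying cells, had 127 and 96.9 CPM in anti-IgM miR-148a cells and 139 and 82.7 CPM in anti-IgM control cells. It had 71.6 and 60.1 CPM in unstimulated miR-148a cells and 91.4 and 65.5 CPM in unstimulated control cells. The control groups overlapped, and the anti-IgM miR-148a libraries lay above the unstimulated ones. The response was, as a log2 fold change, 0.76 ± 0.25 in the miR-148a line and 0.48 ± 0.25 in the control line. It was positive within both runs, at 0.82 and 0.69 in the miR-148a line and 0.60 and 0.34 in the control line. Leaving out 1 library of anti-IgM control cells gave 0.047 (without replicate 1) or 0.82 (without replicate 2) in the control line. An exon of 1810062G17Rik lies in the promoter window of Anxa5, and with the strand setting of the counting not given, reads of overlapping genes may not have been told apart.

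Vim had 483 and 517 CPM in anti-IgM miR-148a cells and 409 and 356 CPM in anti-IgM control cells. It had 162 and 221 CPM in unstimulated miR-148a cells and 200.1 and 172 CPM in unstimulated control cells. The 2 anti-IgM groups were apart from each other and from the unstimulated groups, which overlapped. Its response (log2 fold change) was 1.38 ± 0.15 in the miR-148a line and 1.04 ± 0.15 in the control line.

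Per kilobase of the longest annotated coding transcript, the levels of different genes can be set side by side, as means of 2 libraries with SD. In anti-IgM miR-148a cells, S100a10 (295 ± 40.6 CPM per kb) was the highest, and S100a11 (234 ± 12.8) and Vim (228 ± 11), next in order, lay within their SD of each other. Anxa2 (146 ± 1.33), S100a4 (65.3 ± 8.78), Anxa5 (64.6 ± 12.2) and Anxa6 (63.3 ± 3.79) followed, the last 3 also within their SD. S100a6 (18.8 ± 5.91), S100a13 (13.3 ± 0.379) and Tgm2 (5.69 ± 0.614 CPM per kb) were the lowest, so the pair with the strongest response was low in level in that group. In unstimulated control cells the order was S100a11 (226 ± 9.95 CPM per kb) and S100a10 (180 ± 47.1), which lay within their SD of each other, and then Vim (84.9 ± 9.01) down to S100a6 (1.75 ± 0.735) and Tgm2 (0.276 ± 0.177).

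**Figure D2:**
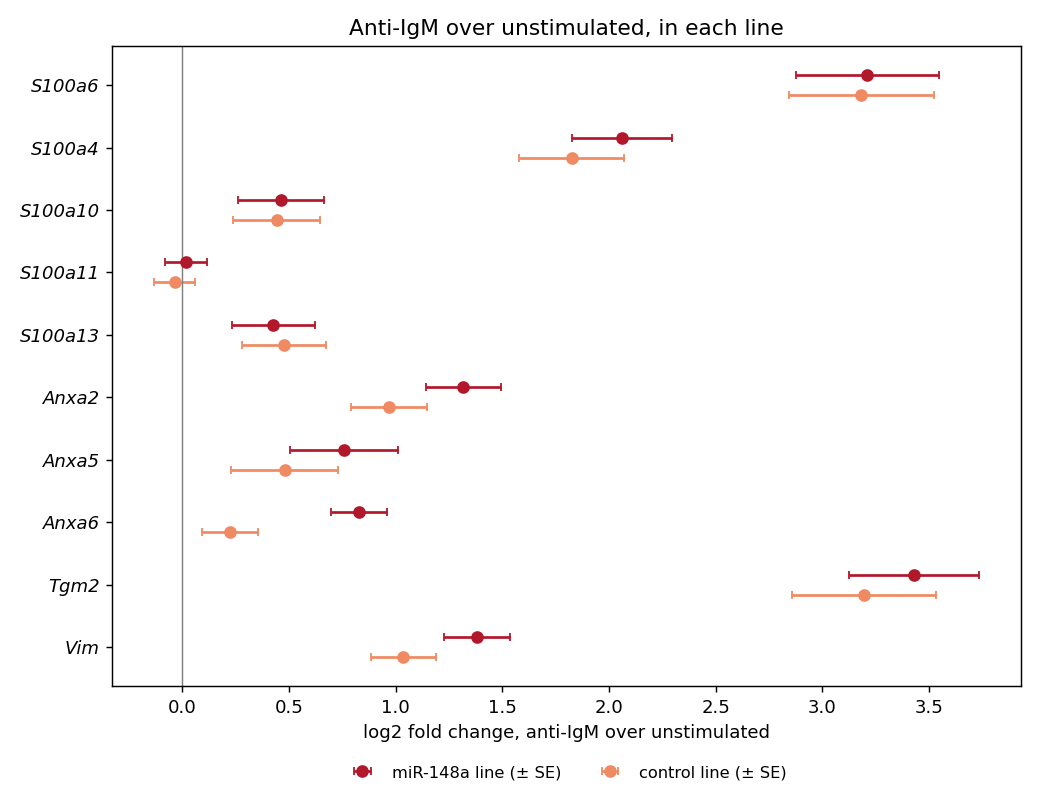
Log2 fold change of anti-IgM over unstimulated (horizontal axis) for the 10 genes, dark points for the miR-148a line and light points for the control line, bars ± SE from the fit to 8 libraries. Tgm2 (3.43 and 3.20) and S100a6 (3.21 and 3.18) lie farthest right in the miR-148a and control lines, and S100a11 lies at 0.

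In the miR-148a line 6 of the 10 genes passed the threshold as higher with anti-IgM (an adjusted p of 0.05 in edgeR's quasi-likelihood test), as did 14.7% of all tested genes. In the control line 5 passed, as did 9.60% of all tested genes. With the replicate number as a block these counts were 8 of 10 in the miR-148a line (22.8% of all genes) and 7 of 10 in the control line (17.6%), S100a10 and Anxa5 being the 2 added in each line. Anxa5 in the miR-148a line was also past the threshold with DESeq2, with no filter and with the 4 libraries only. The libraries with anti-IgM lay above the unstimulated ones without overlap for 9 of 10 genes in the miR-148a line (32.9% of all genes) and for 6 of 10 in the control line (31.1%). Since the list was made with these responses known, nothing is read from these shares. The same holds for the passes of single genes in any fit, those of Anxa5 and S100a10 included. In bulk RNA, a change in the share of cells that carry a transcript and a change in the amount per cell cannot be told apart.

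S100a4, annexins and vimentin are also abundant in monocytes and fibroblasts. The 10 monocyte and macrophage markers in the table summed to 37.5 to 40.0 CPM in anti-IgM miR-148a cells, 36.6 to 40.5 CPM in anti-IgM control cells, 22.1 to 27.0 CPM in unstimulated miR-148a cells and 24.6 to 31.0 CPM in unstimulated control cells. Of these markers Lyz2, S100a8 and S100a9 had 0 counts in every library, and Mpeg1 was the largest part of each sum, at 17.7 to 28.1 CPM. Of the 5 tested, 1 rose, Itgam (against 14.7% of all genes in the miR-148a line and 9.60% in the control line), at 4.17 ± 0.39 on the log2 scale in the miR-148a line (adjusted p = 0.000406) and 3.50 ± 0.40 in the control line (adjusted p = 0.00163). Cd68 had 0.98 ± 0.35 in the miR-148a line (adjusted p = 0.0662, and 0.0213 with the block) and 0.76 ± 0.35 in the control line. The 8 fibroblast markers summed to at most 2.30 CPM, with Col1a2, Col3a1 and Lum at 0 counts throughout, and the 6 T cell markers to at most 1.01 CPM, with Thy1 at 0 counts. The part of the monocyte markers in the responses above was not tested.

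The rule names the response to anti-IgM and not the difference between the lines, although earlier results of both were known. The same libraries enter both, so nothing is read from how many of the 10 genes pass or lie above 0 between the lines. The comparison of the lines asks whether the miR-148a line differs from the control line in each condition. With anti-IgM all 10 log2 fold changes of the miR-148a line over the control line were above 0, with a median of 0.33 against -0.01 over all tested genes, and 8 of 10 were above 0 in both runs. The 7 B cell markers had a median of 0.28 in the same comparison, with 7 of 7 above 0, and Cd79a passed (0.52 ± 0.10, adjusted p = 0.0339). With the replicate number as a block 4 of the 7 passed, against 7.90% of all genes called higher. The part of these markers in the values of the 10 genes was not tested. Anxa6 was the gene that passed the test, higher in the miR-148a line by 0.67 ± 0.13 (1.59-fold, 95% interval 0.30 to 1.03, adjusted p = 0.0402, higher in both runs, edgeR's quasi-likelihood test). It was 1 of 10, against 1.36% of all genes called higher. The call was lost on leaving out either library of anti-IgM miR-148a cells, of anti-IgM control cells or of the unstimulated miR-148a line, with adjusted p from 0.0762 to 0.242 and a log2 fold change from 0.55 to 0.80.

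The replicate numbers pair the libraries by run, and with the replicate as a block 6 of 10 genes passed with anti-IgM, against 7.90% of all genes called higher. As above, nothing is read from this share. Anxa6 had an adjusted p of 0.000402 with the block. Tgm2 was higher in the miR-148a line by 1.04 ± 0.26 (2.06-fold), with an adjusted p of 0.0839 without the block and 0.00181 with it. S100a4 was higher by 0.75 ± 0.22 (adjusted p = 0.126 without and 0.00807 with the block), and Anxa2 by 0.61 ± 0.18 (adjusted p = 0.121 without and 0.00312 with the block). Vim (0.39 ± 0.15, adjusted p = 0.219) and S100a10 (0.27 ± 0.20, adjusted p = 0.543) passed with the block at 0.0417 and 0.0356. Without the block, Tgm2 and Anxa2 also passed with DESeq2 (adjusted p of 0.0480 and 0.0223) and with no filter (0.0247 and 0.0487). All 6 were higher in the miR-148a line in both runs, and the libraries of the lines did not overlap for 5 of them, S100a10 being the exception.

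S100a6 (0.19 ± 0.28), S100a13 (0.10 ± 0.20), S100a11 (0.08 ± 0.10) and Anxa5 (0.02 ± 0.25) passed in neither fit with anti-IgM. For S100a11, the gene with the seed match, the 95% interval of this log2 difference was -0.19 to 0.36, and for S100a6 it was -0.60 to 0.97. In all, the libraries of the miR-148a line lay above those of the control line without overlap for 6 genes with anti-IgM, S100a13 among them, as they did for 21.7% of all tested genes.

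**Figure D3:**
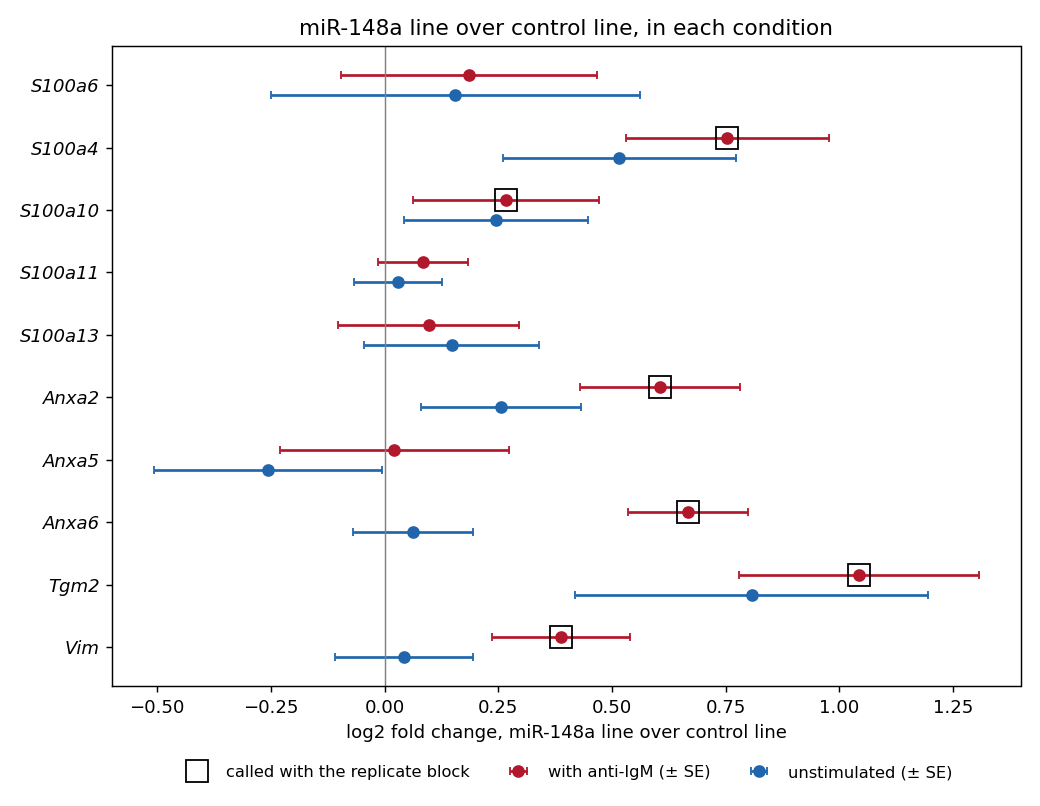
Log2 fold change of the miR-148a line over the control line (horizontal axis) for the 10 genes with anti-IgM (dark red) and unstimulated (blue), bars ± SE from the fit without a block, squares around differences that pass with the replicate as a block. The squares stand at Tgm2 (1.04), S100a4 (0.75), Anxa6 (0.67), Anxa2 (0.61), Vim (0.39) and S100a10 (0.27) with anti-IgM, and at no gene unstimulated.

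Unstimulated, none of the 10 genes passed between the lines, without the block (0.487% of all genes called) or with it (7.29% of all genes called), nor with DESeq2. At an unadjusted p under 0.05 in edgeR's test there were 1286 genes in all and none of the 10. The log2 fold change of the miR-148a line over the control line was 0.81 ± 0.39 for Tgm2 (adjusted p = 0.485) and 0.52 ± 0.26 for S100a4 (adjusted p = 0.501). For these 2 of 10 genes the libraries of the miR-148a line lay above those of the control line without overlap. The same held for 23.1% of all tested genes, so nothing is read from it. The value of Tgm2 was 1.77 without replicate 1 and 0.35 without replicate 2 of unstimulated control cells. For the other 8 genes it lay between -0.26 ± 0.25 (Anxa5) and 0.26 ± 0.18 (Anxa2), and their libraries overlapped. For S100a11 it was 0.03 ± 0.10, with a 95% interval of -0.24 to 0.30. The sign was positive for 9 of 10 genes, but in both runs for only 3, Tgm2, S100a4 and S100a10.

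Whether the response to anti-IgM differed between the lines was tested as the difference of the responses. No gene of 11291 passed with edgeR's quasi-likelihood test (0%). In that test 484 genes had an unadjusted p under 0.05, and of the 10 only Anxa6 was among these. With the block 11 genes passed (0.0974%) and with DESeq2 1 passed, and these held none of the 10. The largest difference among the 10 was that of Anxa6, whose response was higher in the miR-148a line by 0.60 ± 0.19 (95% interval 0.09 to 1.12, higher in both runs, unadjusted p = 0.00994, adjusted p = 0.0826 with the block). For Anxa2 the difference was 0.35 ± 0.25, for Vim 0.35 ± 0.21, for Tgm2 0.24 ± 0.49 and for S100a6 0.03 ± 0.51, the last with a 95% interval of -1.39 to 1.45. So the difference between the lines with anti-IgM is not shown to be other than that without it for any of the 10 genes.

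Replicate 2 was compared with replicate 1 over all groups, as a check on the run that the sequencing prefix marks. S100a10 was lower in replicate 2, at -0.37 ± 0.06 on the log2 scale (adjusted p = 0.000699), as was Anxa5 at -0.47 ± 0.07 (adjusted p = 0.000734), and both were lower in replicate 2 in all 4 groups. These were 2 of the 10 genes, against 9.08% of all genes called lower. The other 8 genes did not pass, with values from -0.33 ± 0.16 (Tgm2) to 0.04 ± 0.13 (S100a13). The run and the culture of a replicate cannot be told apart.

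The S100 family list held 16 genes, all in the table, and the 5 described above were the ones that passed the filter. The other 11 had at most 7 counts in any library, and S100a7a, S100a8, S100a9, S100a16 and S100z had 0 counts in all 8, which allows up to 0.502 CPM in the smallest library. S100a5, which lies between S100a4 and S100a6, had 0.658 and 0.646 CPM in anti-IgM miR-148a cells, 0.167 and 0.435 CPM in anti-IgM control cells, 0 and 0.231 CPM in unstimulated miR-148a cells and 0.0554 and 0 CPM in unstimulated control cells. At this depth its levels lie near the limit of 3 counts.

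**Figure D4:**
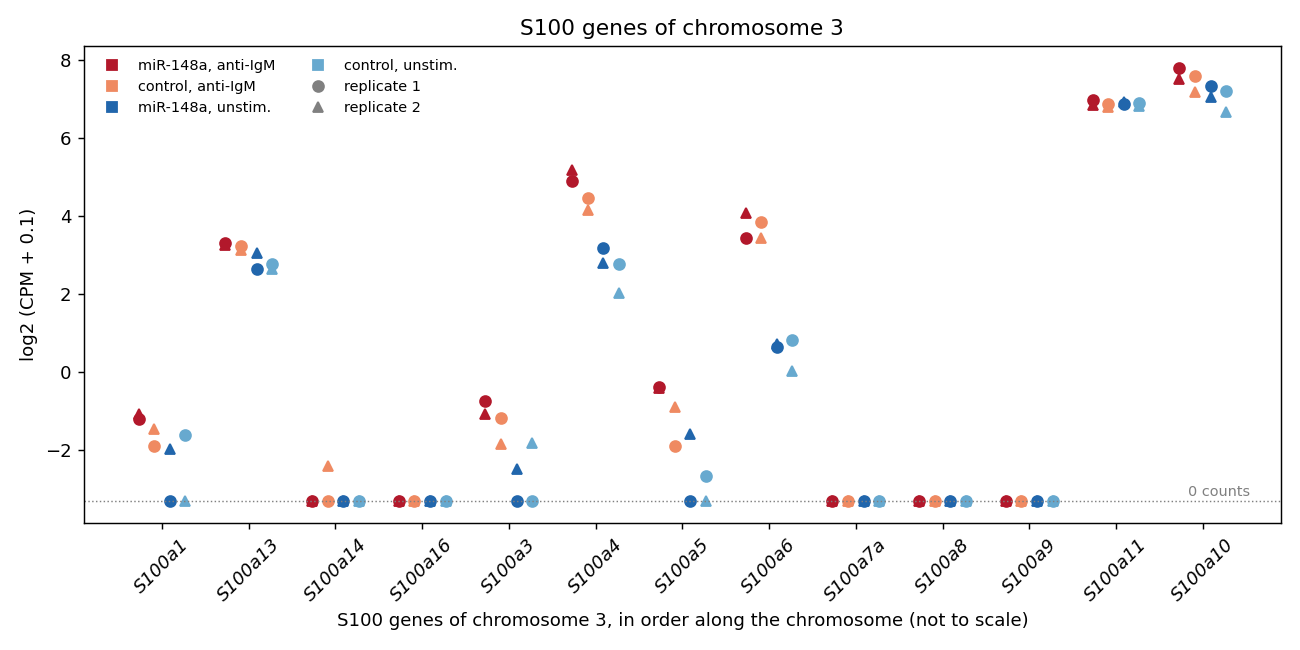
Level of the S100 genes of chromosome 3 in every library (vertical axis, log2 of CPM plus 0.1), in their order along the chromosome (horizontal axis, not to scale), colours for the 4 groups, circles for replicate 1 and triangles for replicate 2, with 0 counts at the dotted line. S100a4 and S100a6 separate by anti-IgM, S100a11 does not, and S100a7a, S100a8, S100a9 and S100a16 are at 0 counts.

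Of the 12 annexins 9 were tested, and 6 of these are not among the 10 genes. In the miR-148a line 1 of the 6 rose with anti-IgM, Anxa7 (0.60 ± 0.12, adjusted p = 0.00687), and 1 fell, Anxa9 (-1.37 ± 0.39, adjusted p = 0.028), against 14.7% of all genes higher and 14.0% lower. In the control line 1 of the 6 rose, Anxa1, the partner of S100a11 (1.12 ± 0.28, adjusted p = 0.0282). In the miR-148a line the value of Anxa1 was 0.82 ± 0.28 (adjusted p = 0.0568, and 0.00286 with the block), and Anxa7 0.32 ± 0.12 in the control line (adjusted p = 0.107, and 0.00811 with the block). Anxa9 had 1.81 and 1.29 CPM in anti-IgM miR-148a cells, 4.02 and 2.26 CPM in anti-IgM control cells, 4.37 and 3.46 CPM in unstimulated miR-148a cells and 2.66 and 2.53 CPM in unstimulated control cells. Its responses differed by -1.59 ± 0.53 between the lines, which did not pass (unadjusted p = 0.0154). Anxa11, Anxa4 and Anxa3 passed for anti-IgM in neither line, and Anxa8, Anxa10 and Anxa13 had 0 counts. With the block, Anxa11 was higher in the miR-148a line by 0.39 with anti-IgM (adjusted p = 0.00649) and by 0.43 unstimulated (adjusted p = 0.00465).

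Of 9 transglutaminase genes only Tgm2 and Tgm4 passed the filter. Tgm4 did not pass for anti-IgM, with a log2 fold change of -0.13 ± 0.27 in the miR-148a line and -0.59 ± 0.27 in the control line. Tgm1 had at most 4 counts in a library, and Tgm3, Tgm5, Tgm6, Tgm7, F13a1 and F13b had 0. Tgm2 was chosen for its rise with anti-IgM, so its response is not read as a finding about the family.

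Of 13 intermediate filament and linker genes 6 were tested, Vim among them. Of the other 5, Krt18, a keratin of simple epithelia, rose in both lines, and Plec, which links vimentin to other filaments, rose in the miR-148a line. Krt18 had 38.2 and 56.0 CPM in anti-IgM miR-148a cells, 21.8 and 18.8 CPM in anti-IgM control cells, 12.3 and 12.5 CPM in unstimulated miR-148a cells and 5.82 and 4.69 CPM in unstimulated control cells. None of these groups overlapped. The log2 fold change with anti-IgM was 1.94 ± 0.19 in the miR-148a line (adjusted p = 0.000427) and 1.91 ± 0.22 in the control line (adjusted p = 0.0015). Between the lines, the miR-148a line was higher in Krt18 by 1.24 ± 0.19 with anti-IgM (adjusted p = 0.0191) and by 1.22 ± 0.22 unstimulated (adjusted p = 0.0513, and 0.00289 with the block). Plec rose by 1.08 ± 0.32 in the miR-148a line (adjusted p = 0.033), and in the control line its value was 0.97 ± 0.32 (adjusted p = 0.0682, and 2.83e-06 with the block). It was also higher in replicate 2 than in replicate 1, by 0.64 ± 0.06 (adjusted p = 1.91e-05, edgeR's quasi-likelihood test). The lamins Lmnb1, Lmnb2 and Lmna did not pass, and Des, Krt8, Nes and Synm had at most 10 counts.

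Of 10 partners of S100 proteins and annexins that were tested, 4 rose and 1 fell in the miR-148a line (against 14.7% of all genes higher and 14.0% lower), and 2 rose in the control line (against 9.60% higher). Ahnak, a giant scaffold protein that the S100a10 and annexin A2 complex binds, had 901 and 1507 CPM in anti-IgM miR-148a cells, 809 and 860 CPM in anti-IgM control cells, 261 and 399 CPM in unstimulated miR-148a cells and 236 and 292 CPM in unstimulated control cells. Its log2 fold change was 1.87 ± 0.26 in the miR-148a line (adjusted p = 0.00133) and 1.66 ± 0.26 in the control line (adjusted p = 0.00436). Dysf, which takes part in membrane repair with annexins, rose by 2.04 ± 0.38 in the miR-148a line (adjusted p = 0.00436) and by 1.47 ± 0.44 in the control line (adjusted p = 0.0496), at 0.451 to 4.71 CPM. In the miR-148a line its relative Myof (1.48 ± 0.45) and Ager, a receptor for S100 proteins (0.93 ± 0.24), rose, and Cacybp, which binds S100a6, fell by 0.79 ± 0.20. In the control line these 3 had 1.15 ± 0.45, 0.75 ± 0.24 and -0.60 ± 0.20 and passed only with the block. Myh9, the myosin that S100a4 binds, was not called for anti-IgM (0.39 ± 0.16 in the miR-148a line, adjusted p = 0.108, and 0.19 ± 0.16 in the control line), and with the block it passed in the miR-148a line (adjusted p = 0.000936). Plgrkt, a plasminogen receptor, passed for anti-IgM only with the block, at 0.67 ± 0.22 in the miR-148a line (adjusted p = 0.0521, and 0.000436 with the block) and 0.60 ± 0.22 in the control line (adjusted p = 0.098, and 0.0012 with the block). It also passed in the comparison of replicates (-0.40 ± 0.09, adjusted p = 0.00596, replicate 2 over replicate 1), where Ahnak (0.44 ± 0.08), Myh9 (0.28 ± 0.05) and Cacybp (-0.32 ± 0.07) also passed. With the block, 7.90% of all genes were called higher and 8.24% lower between the lines with anti-IgM. Of the partners, 4 passed in this comparison with the block and not without it. Of these Dysf (1.43 ± 0.38, blocked adjusted p = 0.0106), Ahnak (0.53 ± 0.25, 0.0118) and Myh9 (0.24 ± 0.16, 0.0457) were higher in the miR-148a line, and Cacybp (-0.48 ± 0.20, 0.00484) was lower. Pdcd6ip, Sri and Pdcd6, which bind annexins or related calcium sensors, passed in no comparison.

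**Figure D5:**
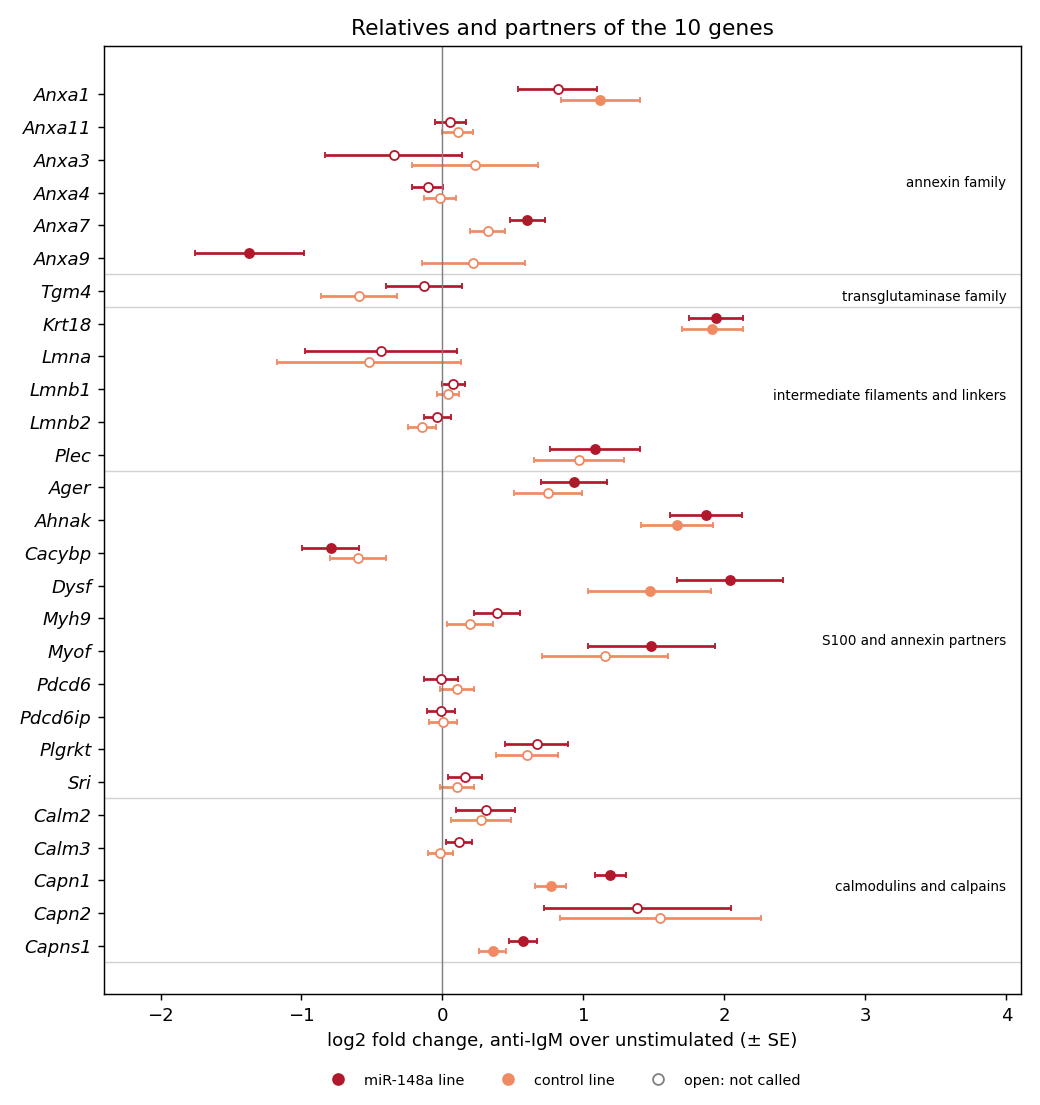
Log2 fold change of anti-IgM over unstimulated (horizontal axis) for tested relatives and partners of the 10 genes, dark red for the miR-148a line and orange for the control line, bars ± SE, filled points past the threshold without a block and open points not. Krt18, Ahnak, Dysf, Capn1 and Capns1 are filled in both lines, and Anxa9 (-1.37) and Cacybp (-0.79) lie left of 0 in the miR-148a line.

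Among calmodulins and calpains, the other calcium sensors listed, 2 of 5 rose in both lines, the calpain subunits Capn1 and Capns1 (against 14.7% of all genes in the miR-148a line and 9.60% in the control line). Capn1 rose by 1.19 ± 0.11 in the miR-148a line (adjusted p = 0.000377) and by 0.77 ± 0.11 in the control line (adjusted p = 0.0035). Capns1 rose by 0.57 ± 0.10 in the miR-148a line (adjusted p = 0.00332) and by 0.36 ± 0.10 in the control line (adjusted p = 0.0385). With anti-IgM, Capn1 was higher in the miR-148a line than in the control line by 0.55 ± 0.11 (adjusted p = 0.0406). The calmodulin genes Calm2 and Calm3 passed for anti-IgM in neither line without the block, nor did the calpain gene Capn2. With the block Calm2 passed in the miR-148a line (adjusted p = 0.00294) and the control line (adjusted p = 0.00811), as did Capn2 (adjusted p of 0.0384 and 0.0364). Calm2 was lower in replicate 2 than in replicate 1, at -0.41 ± 0.05 on the log2 scale (adjusted p = 0.000129).

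The genes with the most similar pattern over the 8 libraries were ranked among 9689 genes by Pearson's r of log2 CPM, as a description, since the libraries fall into an unstimulated and an anti-IgM set. For Tgm2 they were Efnb1 (r = 0.996), Tm6sf1 (0.995), Calcoco1 (0.995), Kctd10 (0.994) and Serpinb1a (0.993). For S100a6 they were Otud7b (r = 0.995), Capn5 (0.991), Pde4a (0.991), Sgms1 (0.990) and Scn4a (0.989). For Vim they were Rbm43 (r = 0.998), Sh3bp1 (0.996), Fuca2 (0.996), Ctdsp2 (0.994) and Tmem51 (0.993). The ranges behind these r differed widely, from 0.812 to 17.8 CPM for Serpinb1a to 55.1 to 73.7 CPM for Kctd10.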

How the data were processed

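PolyA-selected RNA from 8 libraries was counted per gene symbol. The authors deposited 1 table of estimated counts, not normalised and in part not whole, made from libraries of a directional kit per the labels' protocols. The submitters' processing notes name, without roles, TopHat2 2.0.13, Bowtie2, cutadapt, CASAVA 1.8, edgeR and Partek 6.15.0730, and the builds mm10 and GRCm38. The counting step, its annotation and its strand setting have no source here, so reads of overlapping or near-identical genes may not have been told apart. Of 24081 rows, 27 bore calendar dates as names and were left out (0.213% to 0.235% of counts). Between 9.54% and 12.8% of a library's values were not whole, and all were rounded.

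The members and gene lists were chosen with earlier results of these data known. Tests were edgeR's quasi-likelihood F test (R 4.3.3, edgeR 4.0.16) on all 8 libraries with 4 group means, filterByExpr, TMM factors and Benjamini-Hochberg adjustment over 11291 genes, at a threshold of 0.05. Each standard error is the size of the log2 fold change divided by the square root of its F statistic. The design has 4 residual degrees of freedom, from which 95% intervals were taken. The quasi-likelihood p-values rest on more degrees of freedom than these intervals, so an interval and the p beside it need not match. Between-library variation (edgeR's coefficient) was 11.1%, or 5.98% with the replicate number as a block. One gene of a list is not reported here. Named are all 10 members, called relatives, up to 4 uncalled relatives per list and the 5 genes most like S100a6, Tgm2 and Vim. Python 3.11.15 read positions and transcripts from GENCODE M21 and sequences from RefSeq tables. Floors and intervals cover counting error or the spread between libraries only.

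Replicates of a group differed by more than sampling noise (mean chi-square 9.4 to 13.6 on 1 degree of freedom). Replicate numbers follow the run prefix in the labels, 137 or 143. Same-numbered libraries deviated together for each of 6 group pairs (r from 0.495 to 0.569 over genes, which are not independent), so the numbers pair the libraries. Tests have no block unless stated, and for the members and relatives named blocked values stand where they change a call. Alternatives were the block, DESeq2 1.42.0, RLE factors, no filter, the 4 libraries of a comparison only and leaving out each library.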

Additional observations from a re-analysis of the deposited data

How the results depend on the processing

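With the replicate number as a block the genes called for anti-IgM were 5205 (3238 without) in the miR-148a line and 3929 (1925 without) in the control line. The genes called between the lines were 1822 (284 without) with anti-IgM and 823 (55 without) unstimulated, and the members called with anti-IgM were 6 (1 without). Between the lines with anti-IgM, 450 genes and 3 members were called with no filter, 3 members with DESeq2, and 16 genes and 0 members with the 4 libraries only. Unstimulated, 179 genes were called with no filter and 159 with DESeq2. The difference of responses had 11 calls with the block and 1 with DESeq2 (0 with neither). Replicate 2 over replicate 1 had 1203 calls with DESeq2 (2123 with edgeR on all 8 libraries).

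Leaving out each library in turn gave 1463 to 3154 genes for anti-IgM in the miR-148a line and 515 to 2096 in the control line, 0 to 228 genes and 0 to 2 members between the lines with anti-IgM, 0 to 73 genes unstimulated, and 1275 to 1770 genes and 2 to 4 members between replicates. The cause was not tested, beyond the loss of 1 sample. Members whose sign turned on leaving out 1 library had these log2 ranges. The response of S100a11 ran from -0.046 to 0.074 in the miR-148a line and from -0.10 to 0.0092 in the control line. Between the lines with anti-IgM, S100a6 ran from -0.20 to 0.45 and Anxa5 from -0.32 to 0.44. Unstimulated, S100a6 ran from -0.18 to 0.72, S100a10 from -0.022 to 0.54, S100a11 from -0.040 to 0.076, S100a13 from -0.074 to 0.32, Anxa2 from -0.015 to 0.56, Anxa5 from -0.50 to 0.0079, Anxa6 from -0.10 to 0.22 and Vim from -0.20 to 0.23. The difference of responses ran from -0.53 to 0.38 for S100a6, -0.22 to 0.56 for S100a4, -0.28 to 0.30 for S100a10, -0.21 to 0.17 for S100a13, -0.058 to 0.71 for Anxa5 and -0.73 to 0.70 for Tgm2. Replicate 2 over replicate 1 ran from -0.41 to 0.27 for S100a6, -0.10 to 0.10 for S100a13 and -0.11 to 0.11 for Vim. A further 2 signs turned, S100a11 between unstimulated lines with no filter (-0.0085) and S100a6 between replicates with DESeq2 (-0.069), and none of these values was called. RLE factors turned no sign and changed no call of a member.

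Without replicate 1 of the control line with anti-IgM the response of Anxa2 in that line was 0.77, and without replicate 2 of the unstimulated control line it was 0.71, against 0.97 with all libraries. The smallest libraries and the low counts of Tgm2 and S100a6 in unstimulated cells limit the precision of their fold changes. No scaling moved the median of all genes by more than 0.1.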
